A study of Mus musculus with 14 samples.

Results

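The earliest effect of Setdb1 hairpins on X-linked genes was examined in differentiating female mouse embryonic stem (ES) cells. The comparison set the 4 day 3 libraries transduced with a Setdb1 hairpin, shSetdb1.4 or shSetdb1.6 in replicates 1 and 2 each, against the 2 day 3 libraries transduced with the non-silencing hairpin (Nons), so that 6 of the 14 RNA-seq libraries of the series are described. The members were taken by hairpin and day from the sample labels. All 6 libraries came from the Setdb1+/+ Xist∆A/+ genotype, in ES cells derived at E3.5 from CAST sires and dams that the labels call 129/C57 and the study's text calls 129, on day 3 of a stepwise change from 2i plus LIF to serum medium. The cells carried a retroviral hairpin and had been put under puromycin selection. The labels place transduction on day 2 of differentiation, whereas the methods place it at the start of differentiation, so the time between transduction and harvest is uncertain. A single hybrid line was used, and the study describes its replicates as independent experiments.

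In female mammals 1 X chromosome is silenced in each cell when pluripotent cells differentiate. Silencing is started in cis by the non-coding RNA Xist, and the Xist∆A allele lacks the A-repeat that silencing needs, so the 129 X stays active (Xa) and the CAST X is the obligate inactive X (Xi). Setdb1 methylates lysine 9 of histone H3 and is known for silencing retroelements and germline genes in ES cells. Because both X chromosomes are still active before inactivation, a change in total reads of an X-linked gene at this time bears on its expression, and a change in the ratio of CAST to 129 reads (the Xi/Xa ratio) bears on one allele against the other.

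The hairpins themselves define the comparison, so the antisense strand of each is shown in DNA letters, 5′ to 3′, with the seed (bases 2 to 8) in capitals. They were read from the study's list of designed hairpin oligonucleotides.
Nons: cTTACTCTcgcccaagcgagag
shSetdb1.4: tTTGTCTGcaaagtcatctgtc
shSetdb1.6: tAGATCTTgagaactgcttttc
The strands are 22 bases long. The reverse complement of shSetdb1.4 was found in 4 transcripts of the GENCODE annotation and that of shSetdb1.6 in 5, all of Setdb1, and Nons matched none. In mm10, the shSetdb1.4 target lay at chr3:95327805-95327826 on the minus strand, in coding exon 16 of 22. The shSetdb1.6 target lay at chr3:95348003-95348024 on the minus strand, in coding exon 5 of 22. The guides therefore share no target bases and have different seeds. Only X-linked SNP counts were analysed here, so the level of Setdb1 and the depth of the knockdown were not measured. The study itself reports that Setdb1 stayed knocked down over the course of differentiation.

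The 6 libraries held 39592 to 79969 reads with a 129 or CAST base at 2239 SNPs, and the SNPs with at least 10 reads had a median of 22 to 27 reads. Of 355 genes with SNPs in exons of 1 gene, 303 had a mean of at least 10 reads and were tested. The shSetdb1.6 library was the shallowest in each replicate, with 39592 and 58557 reads. Of the X-linked genes associated with naive pluripotency, 8 of 11 were tested, among them the nuclear receptor gene Nr0b1 with 338 to 1288 reads in each library. The 8 blood-associated genes had no SNP in the table, so their level was not measured. Levels were scaled to X-linked SNP reads only, so a shift shared by the whole chromosome, or by fewer cells and less RNA per cell, cannot be seen in them.

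Chromosome-wide, both alleles were read equally at day 3 with or without the Setdb1 hairpins. The CAST share of all SNP reads was 50.0% in both Nons libraries, 49.4% and 50.0% under shSetdb1.4, and 49.4% and 50.6% under shSetdb1.6. Nons at day 5 stood at 42.6% and 46.1%, so the day 3 control had not yet moved from parity. The median log2 Xi/Xa ratio per SNP, over 944 to 1405 SNPs with at least 10 reads, was 0.0 in each of the 6 libraries, and the difference between hairpins and Nons was 0.0 ± 0.0 (SD, n = 4 hairpin libraries, each against Nons of its replicate). All 6 medians were equal, so a permutation test of them could only give no difference and decides nothing. The mean log2 ratio, which resolves smaller shifts, ran from -0.07 to 0.02 and differed by -0.01 ± 0.06 (SD, n = 4). An exact permutation test of the mean within replicates, two-sided, gave p = 0.889, where the smallest p that its 9 arrangements allow is 0.111.

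**Figure D1:**
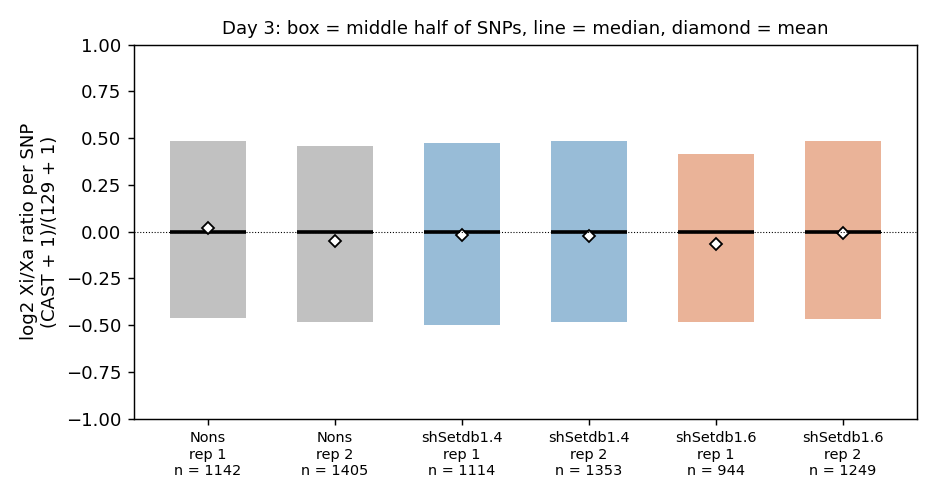
Log2 Xi/Xa ratio per SNP, (CAST + 1)/(129 + 1), in the 6 day 3 libraries: boxes span the middle 50% of SNPs, black lines are medians and diamonds are means, with the number of SNPs under each box. The 6 boxes sit at the same height, with medians of 0.0 and means between -0.07 and 0.02.

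Single SNPs were split between both directions. In replicate 1, 804 SNPs had at least 10 reads in all 3 libraries, and 234 (29.1%) had a higher Xi/Xa ratio with both hairpins than with Nons, against 277 (34.5%) with a lower one. In replicate 2 the order was the other way, with 360 of 1072 SNPs (33.6%) higher and 316 (29.5%) lower. Over the 788 SNPs measured in both replicates, 71 were higher in both, 85 were lower in both and 160 went in opposite directions. Along the chromosome, the CAST share in 16 windows of 10 Mb differed between the mean of the hairpins and the mean of Nons by -2.14 to 3.55 percentage points. The hairpin libraries lay above both Nons libraries in 1 window (60 to 70 Mb) and below both in 1 window (50 to 60 Mb).

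Total expression of X-linked genes was not detectably changed by the Setdb1 hairpins at day 3. With edgeR's quasi-likelihood test, 0 of 303 genes (0%) passed an adjusted p of 0.05 and 7 (2.31%) had an unadjusted p under it, 4 higher (1.32%) and 3 lower (0.99%). The median log2 fold change was -0.03, and for 224 genes (73.9%) the 95% interval of the fold change stayed within 2-fold in either direction. DESeq2 also called 0 genes. The reads of each allele taken alone gave 0 adjusted calls as well, with 6 unadjusted calls (1.98%) for CAST reads and 9 (2.97%) for 129 reads. Taken singly, shSetdb1.4 had 6 unadjusted calls (1.98%) against Nons and shSetdb1.6 had 28 (9.24%), and neither had an adjusted one in this fit. For shSetdb1.6 1 gene (Tsr2, adjusted p = 0.0395) passed with the replicate as a block and 11 with the spread estimated from day 3 libraries alone.

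**Figure D2:**
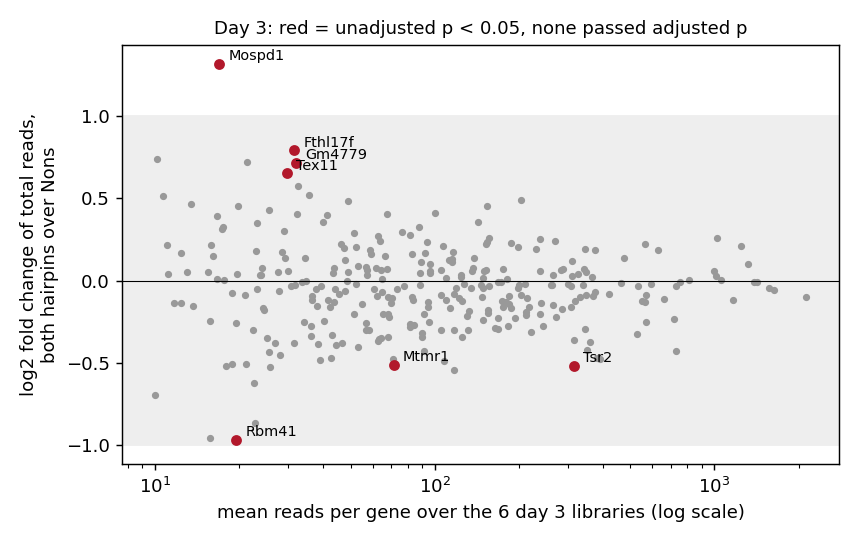
Log2 fold change of total reads with both hairpins over Nons at day 3 against the mean reads per gene (log scale), 1 point per gene, 303 genes; red points have an unadjusted p under 0.05 and the grey band marks 2-fold in either direction. The points narrow around 0 as the reads rise, and of the 7 red genes only Mospd1 lies outside the band.

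The genes with the largest nominal differences were lowly read. Mospd1, which encodes a protein with a major sperm protein domain, had a level of 192 and 116 CPM (SNP reads scaled to a common library size after TMM normalisation) in Nons, 327 and 416 under shSetdb1.4, and 541 and 235 under shSetdb1.6. All 4 hairpin libraries lay above both Nons libraries, with a log2 fold change of 1.32 ± 0.53 (SE; adjusted p = 0.996) on 9 to 30 reads a library. Groups failed to overlap in this direction for 16 genes (5.28%) and in the opposite direction for 17 (5.61%). Rbm41, which encodes an RNA-binding protein of the minor spliceosome, had 288 and 593 in Nons, 269 and 347 under shSetdb1.4, and 172 and 168 under shSetdb1.6, and 1 hairpin library lay within the Nons range. Its log2 fold change of -0.97 ± 0.41 (SE) became -0.32 without Nons replicate 2.

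X-linked germline genes belong to a class that Setdb1 is known to repress, and none was called at day 3. Of 39 listed, 12 were tested, 0 passed the adjusted p, 2 had an unadjusted p under 0.05, and 8 were higher and 4 lower, with a median log2 fold change of 0.08. Over all 303 genes tested, 7 (2.31%) had an unadjusted p under 0.05, 124 were higher and 179 lower, and the median was -0.03. The ferritin-like gene Fthl17f had 441 and 309 CPM in Nons, 635 and 555 under shSetdb1.4, and 738 and 654 under shSetdb1.6, with no overlap between groups (log2 0.79 ± 0.34, SE; adjusted p = 0.996). The meiotic gene Tex11 had 384 and 361 in Nons, 596 and 514 under shSetdb1.4, and 615 and 620 under shSetdb1.6, also without overlap (log2 0.65 ± 0.30, SE). Taf7l, which encodes a TFIID subunit of germ cells, had 269 and 245 in Nons and 385 to 486 in the 4 hairpin libraries. Each of the 3 had 40 or fewer reads in every library. The other members lay between -0.20 for Nxf3 and 0.45 for Usp26, a testis-expressed ubiquitin protease gene.

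Genes that escape X inactivation in many mouse tissues were described next. All 9 tested of 11 listed had a negative log2 fold change, from -0.29 for the translation factor gene Eif2s3x to -0.01 for the histone demethylase gene Kdm5c, and none reached an unadjusted p of 0.05. Over all genes tested, 179 of 303 had a negative value. Eif2s3x had 6065 and 6841 CPM in Nons, 6249 and 6303 under shSetdb1.4, and 4351 and 4494 under shSetdb1.6. The lower mean therefore came from shSetdb1.6, while shSetdb1.4 lay within the Nons range. Summed over the 9 genes, the level was 44856 and 50267 CPM in Nons, 47820 and 47367 under shSetdb1.4, and 40196 and 40832 under shSetdb1.6.

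Neighbours of the X inactivation centre had small positive values. The 4 tested of 12 listed were higher, with log2 fold changes of 0.03 to 0.41, and 0 passed at an unadjusted p of 0.05, beside 124 of 303 genes higher and 7 (2.31%) at that p over all genes. Rlim, which encodes an E3 ubiquitin ligase that promotes Xist expression, had 15816 and 15369 CPM in Nons, 18113 and 17089 under shSetdb1.4, and 21954 and 17725 under shSetdb1.6. The groups did not overlap, and the difference was 0.26 ± 0.20 on the log2 scale (SE; adjusted p = 0.996). The Xi/Xa ratio of these 4 genes differed by 0.11 to 0.16 on the log2 scale, and none passed the test.

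Lists tied to cell identity likewise held no called gene, and their counts stand beside 124 genes higher and 179 lower of the 303 tested. Of the 8 tested genes associated with naive pluripotency, 1 was higher and 7 lower (median log2 -0.11), and 0 reached an unadjusted p of 0.05. Nr0b1 had 11612 and 16593 CPM in Nons, 9826 and 14327 under shSetdb1.4, and 8310 and 9944 under shSetdb1.6. The groups overlapped, although each hairpin library lay below Nons of its own replicate, and the log2 fold change was -0.43 ± 0.29 (SE). The 6 neural-associated genes lay between -0.26 for Sox3, a neural progenitor factor gene, and -0.07 for Bex2. Of the 7 extraembryonic and mesoderm-associated genes, 3 were higher and 4 lower. Among 25 chromatin and transcription regulators, 11 were higher and 14 lower, including Hcfc1 (log2 -0.04), Huwe1 (0.21) and Hdac6 (0.06).

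Matches to the hairpin seeds were counted in the 3′ untranslated regions of 296 tested protein-coding genes. The 7 bases CAGACAA, complementary to the shSetdb1.4 seed, occurred in 40 genes (13.5%), and their median log2 fold change with shSetdb1.4 was -0.06 beside -0.05 for genes without a match. The 7 bases AAGATCT, complementary to the shSetdb1.6 seed, occurred in 35 genes (11.8%), with a median of 0.02 under shSetdb1.6 beside 0.01 without. Only the mRNA strand was searched, and a match is a description of the sequence.

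Differences in the relative expression of the 2 alleles passed the test in few genes. Over 303 genes the median difference of the log2 Xi/Xa ratio was 0.01, 12 genes (3.96%) had an unadjusted p under 0.05, and 185 (61.1%) had a 95% interval within 2-fold. Taken singly, 14 genes (4.62%) had an unadjusted p under 0.05 for shSetdb1.4 and 17 (5.61%) for shSetdb1.6. The mean log2 ratio of a gene with the hairpins, whose source was not tested, followed that with Nons. Across genes, as a description, r was 0.95 over the 141 genes with a mean of at least 100 reads and 0.77 over all 303. For example, Ap1s2, an adaptor protein gene, had 81.0 to 85.2% CAST reads in the 6 libraries, whereas the long non-coding RNA gene Firre had 14.5 and 15.3% in Nons and 16.9 to 24.9% with the hairpins. The groups did not overlap for Firre, which happened in this direction for 18 of 303 genes (5.94%). Its log2 difference of 0.58 did not pass the test (unadjusted p = 0.0519). Many of its SNPs lie within 1 read length of each other, so reads were counted several times, which bears on this p.

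A single gene passed the test on the ratio with both hairpins, 1 of 303 (0.33%), and it was also the only adjusted call of shSetdb1.4, while shSetdb1.6 had 0. This was 5530601H04Rik, a non-coding RNA gene on the minus strand at chrX:105037197-105079609 (mm10), which belongs to the list of escape genes. In Nons, 6 of 20 and 6 of 22 reads came from CAST, shares of 30% (95% Wilson interval 14.5 to 51.9%) and 27.3% (13.2 to 48.2%). With shSetdb1.4, 20 of 24 (83.3%, 64.1 to 93.3%) and 16 of 18 reads (88.9%, 67.2 to 96.9%) came from CAST. With shSetdb1.6, 5 of 7 (71.4%, 35.9 to 91.8%) and 17 of 22 reads (77.3%, 56.6 to 89.9%) did. The 4 hairpin libraries lay above both Nons libraries, which happened in this direction for 18 of 303 genes (5.94%). The log2 Xi/Xa ratio was higher by 3.38 ± 0.72 (SE; edgeR quasi-likelihood test, adjusted p = 1.37e-04). Its total level differed by -0.07 ± 0.42, CAST reads by 1.41 (unadjusted p = 0.0136) and 129 reads by -1.97 (unadjusted p = 0.00107), so that neither allele passed alone.

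The call rests on few reads. Without Nons replicate 2 the difference was 3.13 with an adjusted p of 0.143, and DESeq2 gave 3.42 with an adjusted p of 0.0809. Untransduced cells at day 0 had 10 of 20 and 9 of 17 reads from CAST, and day 5 Nons had 18 of 26 and 6 of 7, so that the day 3 Nons libraries were the lowest of the control libraries analysed here. The 3 SNPs of the gene are shown on the gene's strand with the 129 or CAST base in capitals, since they carry the whole result. The flanking sequence was read from GENCODE transcripts of mm10.
chrX:105043233, 129: aatgtactgtAactgtttaac
chrX:105043233, CAST: aatgtactgtGactgtttaac
chrX:105043266, 129: tgctctgcccAtgactgcttc
chrX:105043266, CAST: tgctctgcccCtgactgcttc
chrX:105066809, 129: tccctttgacGttccagaact
chrX:105066809, CAST: tccctttgacAttccagaact
All 3 are in exons, the first 2 in exon 5 and the last in exon 4 of transcript 5530601H04Rik-207. The first 2 lie 33 bp apart, within 1 read of 100 bp, so a read can be counted at both. At these 2, the 4 hairpin libraries had 0 reads from 129, whereas Nons had 2 and 4 at the first and 3 and 3 at the second. At the third SNP, 23543 bp away, 129 and CAST reads were 9 and 2 and 9 and 4 in Nons, 4 and 8 and 2 and 10 under shSetdb1.4, and 2 and 1 and 5 and 4 under shSetdb1.6.

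**Figure D3:**
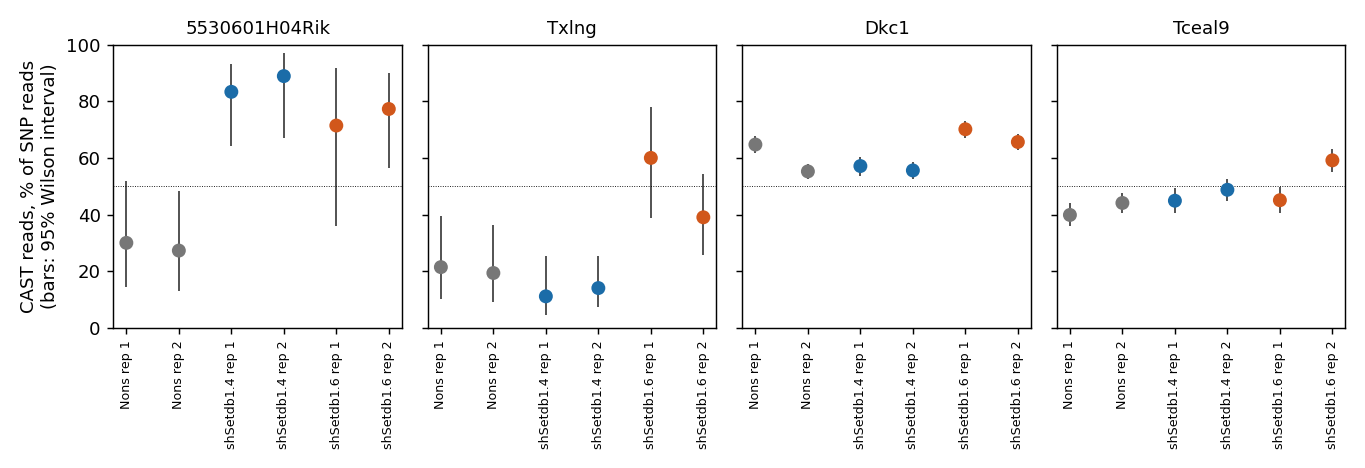
CAST reads as a percentage of SNP reads for 4 genes in the 6 day 3 libraries, with 95% Wilson intervals, which take each SNP count as a separate read and are too narrow where 1 read covers several SNPs; grey is Nons, blue shSetdb1.4 and orange shSetdb1.6. For 5530601H04Rik the hairpin libraries sit between 71.4 and 88.9% and Nons at 30 and 27.3%, while for Txlng and Dkc1 the 2 hairpins sit apart from each other.

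Other ratio differences did not pass the adjusted p. Tsc22d3, a glucocorticoid-induced gene, had 57.7% in Nons replicate 1 and 4.17% in Nons replicate 2 (1 of 24 SNP counts). Of its 5 SNPs, 4 lie within 1 read length of each other, so these counts come from fewer reads, which bears on its p-values. Its difference of 1.53 on the log2 scale was 5.07 without replicate 1 (adjusted p = 1.81e-04) and 0.40 without replicate 2 (adjusted p = 0.974), so that its value depended on which control library was used. Tceal9, a neighbour of the Bex genes, had 39.8 and 44.1% in Nons, 44.9 and 48.7% under shSetdb1.4, and 45.1 and 59.1% under shSetdb1.6 (log2 0.45 ± 0.17, SE; adjusted p = 0.495).

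The replicates shared little of the difference between both hairpins and Nons. Across 303 genes, the difference in level between both hairpins and Nons in replicate 1 followed that in replicate 2 at r = 0.10 (0.21 over the 141 genes with a mean of at least 100 reads), and 51.5% of genes had the same sign. For the Xi/Xa ratio r was 0.09 (-0.08 over the 141 genes), with 49.5% of genes of the same sign. By contrast, the difference in level between the 2 hairpins was shared by the replicates, with r = 0.67 over 303 genes and 0.85 over 141. These values are descriptions across genes, which are not independent replicates. The level of shSetdb1.6 minus Nons gave 0.43 (0.67 over 141 genes) and that of shSetdb1.4 minus Nons 0.18 (0.34).

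**Figure D4:**
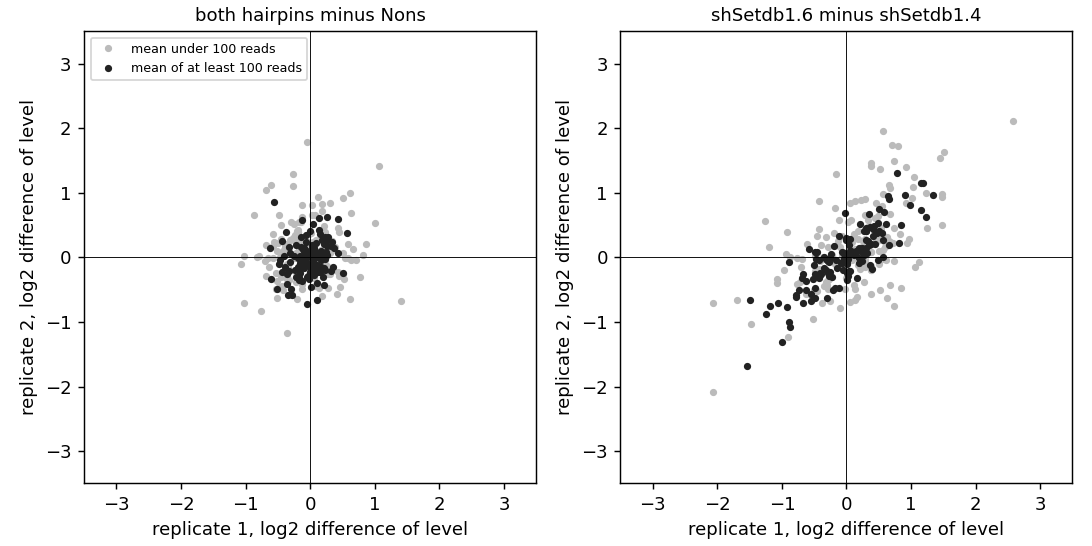
Log2 differences of level per gene in replicate 1 (x axis) against replicate 2 (y axis), for both hairpins minus Nons (left) and shSetdb1.6 minus shSetdb1.4 (right), 303 genes each; black points have a mean of at least 100 reads. The left cloud is round (r = 0.10), and the right cloud runs along the diagonal (r = 0.67).

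The shSetdb1.6 libraries stood apart from the other 4 more often than the Nons libraries did. Both shSetdb1.6 libraries lay outside the range of the other 4 in 98 of 303 genes (32.3%), both shSetdb1.4 libraries in 61 (20.1%) and both Nons libraries in 33 (10.9%). The first principal component of the levels, over 141 genes, held 71.8% of the variance. Its weights were -0.61 and -0.39 for shSetdb1.6, 0.33 and 0.43 for shSetdb1.4, and -0.15 and 0.39 for Nons replicates 1 and 2. Nons replicate 1 therefore lay on the side of shSetdb1.6 and Nons replicate 2 on that of shSetdb1.4. Across genes, the difference between the hairpins followed the difference between the Nons replicates (r = 0.56) and the difference between the untransduced replicates at day 0 (r = 0.46). It ran against the change of Nons from day 0 to day 3 (r = -0.54) but not against that from day 0 to day 5 (r = -0.0041). The shSetdb1.6 libraries were also the shallowest of their replicates, and the part of depth was not tested.

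In the test of shSetdb1.4 against shSetdb1.6, 0 of 303 genes (0%) passed the adjusted p for the level and 53 (17.5%) had an unadjusted p under 0.05, 25 higher (8.25%) and 28 lower (9.24%) in shSetdb1.4. The smallest adjusted p was 0.068. This count depended on the fit, as 4 genes passed with DESeq2, 7 with the replicate as a block and 44 with the spread estimated from the day 3 libraries alone. The 4 genes called by DESeq2, Pls3, AU022751, Tsr2 and Tceal8, were called in all 3 of these fits. They, Pim2 and Gpc3 were chosen after their values were seen.

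Pls3, which encodes an actin-bundling plastin, had 960 and 889 CPM in Nons, 731 and 722 under shSetdb1.4, and 2016 and 1425 under shSetdb1.6. Both shSetdb1.6 libraries were above all others, and the hairpins differed by -1.23 ± 0.27 (log2, SE; edgeR adjusted p = 0.068). The protein-coding gene AU022751 had the same order, with 1727 and 1752 in Nons, 1038 and 1527 under shSetdb1.4, and 2606 and 2968 under shSetdb1.6. Tsr2, a ribosome biogenesis gene, was lowest under shSetdb1.6, while shSetdb1.4 lay within the Nons range. It had 4875 and 7317 in Nons, 5980 and 6372 under shSetdb1.4, and 2458 and 3404 under shSetdb1.6. The hairpins differed by 1.07 ± 0.26 (log2, SE, edgeR adjusted p = 0.0968). Tceal8, of the transcription elongation factor A-like family, had 2841 and 3852 in Nons, 3749 and 4401 under shSetdb1.4, and 1991 and 2046 under shSetdb1.6. The kinase gene Pim2 had the largest weight on the Tsr2 side of the component, with 4395 and 7832 in Nons, 8191 and 8565 under shSetdb1.4, and 2729 and 2616 under shSetdb1.6. The glypican gene Gpc3 had the largest weight on the other side, with 2975 and 1507 in Nons, 1827 and 1458 under shSetdb1.4, and 4081 and 3220 under shSetdb1.6.

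**Figure D5:**
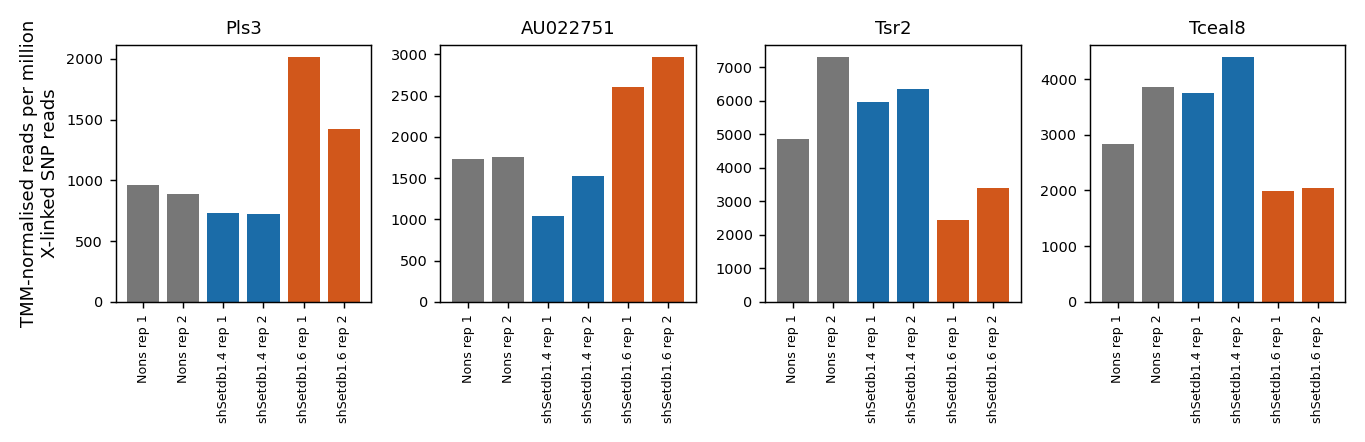
CPM (TMM-normalised X-linked SNP reads) for Pls3, AU022751, Tsr2 and Tceal8 in the 6 day 3 libraries, 1 bar per library; grey is Nons, blue shSetdb1.4 and orange shSetdb1.6. In each gene the 2 orange bars lie outside the range of the other 4, above it for Pls3 (2016 and 1425) and AU022751 and below it for Tsr2 and Tceal8.

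The Xi/Xa ratio differed between the hairpins in 2 of 303 genes (0.66%), with 18 (5.94%) at an unadjusted p under 0.05, and both called genes had more CAST reads under shSetdb1.6. Dkc1, which encodes the pseudouridine synthase dyskerin (chrX:75095854-75109777, plus strand), had 64.7 and 55.2% CAST reads in Nons, 57.1 and 55.6% under shSetdb1.4, and 70.1 and 65.6% under shSetdb1.6, on 835 to 1291 reads a library. The hairpins did not overlap and differed by -0.71 ± 0.18 (log2, SE; adjusted p = 0.0101), but Nons replicate 1 lay near shSetdb1.6 and Nons replicate 2 near shSetdb1.4. Without the replicate block the adjusted p was 0.215, and with DESeq2 it was 0.177. Txlng, which encodes the syntaxin-binding protein gamma-taxilin (chrX:162778919-162829454, minus strand), had 21.4 and 19.4% in Nons, 11.1 and 14% under shSetdb1.4, and 60.0 and 39.0% under shSetdb1.6 (log2 -2.56 ± 0.65, SE; adjusted p = 0.0101). Its 2 SNPs lie 11 bp apart in an untranslated exon and share nearly all reads, and with 1 SNP per 100 bp the adjusted p was 0.161. Leaving out shSetdb1.4 replicate 1 or either shSetdb1.6 library removed both calls, and leaving out shSetdb1.4 replicate 2 removed that of Dkc1 (adjusted p = 0.197).

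The effects of the hairpins at day 3 were set against those at day 5 by an interaction term. It was fitted once, without the alternative fits used for the other comparisons. For the Xi/Xa ratio 3 genes (0.99%) passed the adjusted p and 37 (12.2%) had an unadjusted p under 0.05, of which 32 (10.6%) were higher at day 5 and 5 (1.65%) lower. The day 5 effect was the higher one in 228 of 303 genes, with a median difference of 0.33 on the log2 scale. For totals 0 passed (0%) and 6 (1.98%) had an unadjusted p under 0.05. The called genes were 5530601H04Rik and Tceal9, whose day 5 effect was lower than that at day 3, and Piga, whose day 5 effect was higher. At day 3 Piga had 58.1 and 64.7% CAST reads in Nons, 39.5 and 51.8% under shSetdb1.4, and 51.9 and 49.4% under shSetdb1.6. Nearly all reads of Tceal9 lie over 2 adjacent SNPs and were counted at both, which bears on its SE and p.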

How the data were processed

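RNA-seq reads (100 bp, single-end) were mapped by the authors to mm10 with Subread and counted with samtools pileup. The deposited values are raw counts of reads with the 129 or CAST base at X-linked SNPs of the Mouse Genomes Project, with replicates kept apart. The table holds 4 further per-sample columns (day 3, Un) that match no sample label and were not used. SNPs were given gene names from GENCODE M21 exons. Of 2239 SNPs, 2173 lay in exons of 1 gene, 31 in exons of several and 35 in none, and the last 2 kinds entered library values only. Strand was not stated to be used in counting, so overlapping genes and near-identical copies (such as the Xlr3 genes) may share reads. The reads carry no molecular identifiers, and a read can be counted at several SNPs. The Wilson intervals of CAST shares therefore cover counting error only and are too narrow for genes with close SNPs. The SEs and fold-change intervals of the edgeR fits also include the spread between libraries, and reads counted at several SNPs bear on them too. Depth per day 3 library was 39592 to 79969 reads.

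Totals per gene were tested with edgeR 4.0.16 (R 4.3.3), quasi-likelihood with Benjamini-Hochberg adjustment, after TMM, in 1 model of all 14 libraries without a block. The fit of the Xi/Xa ratio used the CAST and 129 counts, with library terms, a CAST-over-129 effect per condition and another per replicate number (the block). Both covered genes with a mean of at least 10 reads at day 3. The study compared hairpins with Nons within replicates, which is where the pairing comes from. Deviations of same-numbered day 3 libraries correlated at r = 0.18 to 0.30 for totals and -0.01 to 0.07 for ratios. DESeq2 1.42.0, other filters, scalings and SNP sets, and leaving out each library were alternatives. Python 3.11.15 with scipy 1.17.1 gave exact tests. The models were tested on simulated data.

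The genes named were the 10 with the smallest p for totals and for ratios among genes with the same direction in the hairpin libraries, those past an adjusted p of 0.05, the 3 tested members of each list with the most reads, and all tested escape genes; 1 gene that met this rule is not reported here. Genes at the end of a list's range and those of the level comparison between hairpins were named after their values were seen. The members and lists were chosen with earlier results of these data known.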

Additional observations from a re-analysis of the deposited data

Results flagged for a closer look

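The Xi/Xa effect of both hairpins was not the same at day 5 as at day 3 in 3 genes, by an interaction term (edgeR quasi-likelihood test, Benjamini-Hochberg adjustment, 303 genes). For 5530601H04Rik the day 5 effect minus the day 3 effect was -3.97 ± 1.03 (log2, SE; adjusted p = 0.0090), with 69.2 and 85.7% CAST reads in day 5 Nons and 56.2 to 75.0% in the day 5 hairpin libraries. For Tceal9 it was -1.14 ± 0.23 (adjusted p = 2.48e-04), with 44.2 and 45.1% in day 5 Nons and 20.9 to 49.7% with the hairpins, on reads counted mostly at 2 adjacent SNPs. For Piga, which acts in GPI anchor synthesis, it was 1.93 ± 0.54 (adjusted p = 0.0323), with 34.4 and 29.2% in day 5 Nons and 46.8 to 62.5% with the hairpins. The same term called 0 of 303 genes for totals (6 at an unadjusted p under 0.05). It was fitted once, without the alternative fits used for the other comparisons. For 5530601H04Rik it includes the few day 3 Nons reads, of which 6 of 20 and 6 of 22 came from CAST.

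The effect on the Xi/Xa ratio also differed between the 2 hairpins at day 3, by a direct contrast, in Dkc1 (shSetdb1.4 minus shSetdb1.6, -0.71 on the log2 scale) and Txlng (-2.56).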

How the results depend on the processing

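Groups of 2 libraries and about 22 to 27 reads at a SNP limit what can be seen. For totals of both hairpins, CAST reads and 129 reads, each alternative gave 0 calls. The count for shSetdb1.6 against Nons was 1 with the replicate block (Tsr2) and 11 with day 3 libraries only. The count for shSetdb1.4 against shSetdb1.6 was 7 with the replicate block, 4 with DESeq2 and with at least 10 reads in every library, 44 with day 3 libraries only and 3 with 1 SNP per 100 bp. For the ratio of both hairpins, and of shSetdb1.4 alone, the count was 0 with DESeq2, 0 with a mean of at least 30 reads and 0 with at least 10 reads in every library (5530601H04Rik was then not tested), and 0 to 2 when 1 library was left out (without Nons replicate 2 it was 0, without Nons replicate 1 Tsc22d3 was added). For shSetdb1.6 the count was 3 with ratios centred on the library median, 2 with day 3 libraries only and 0 to 1 with 1 library left out. Between the hairpins it was 1 without the replicate block (Txlng), 0 with DESeq2, 4 with day 3 libraries only, 1 with 1 SNP per 100 bp (Dkc1) and 0 to 2 with 1 library left out. The median ratio with at least 20 reads differed by 0.01 (0.0105). The correlation of replicates was 0.205 for totals over genes with a mean of at least 100 reads, and for ratios -0.055 with at least 30 and -0.078 with at least 100. No called difference that was refitted changed sign, while this correlation of ratios did, and the causes were not tested.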
